A study of Mus musculus with 3 samples.

Results

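The Rab genes encode small GTPases of membrane traffic. They were taken as every gene with a transcript annotated as protein_coding whose symbol is Rab, a number and, where present, a letter and a further digit. This gave 59 genes, of 21901 with a protein_coding transcript and 55536 annotated genes in all. They lie on 18 chromosomes, with 7 on chromosome 17.

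The samples are bone-marrow-derived macrophages, primary cells grown out of the marrow of C57BL/6J mice. All were given Lipid A, the TLR4-binding moiety of bacterial lipopolysaccharide, at 100 ng/ml for 10 min. RNA that stays with chromatin on fractionation was depleted of ribosomal RNA and sequenced. There is 1 group of 3 libraries, replicates 1, 2 and 3, made from 1 µg, 250 ng and 500 ng of RNA, so amount and replicate cannot be told apart. The animals' age is not given in the labels. The labels give the libraries 1 donor entry, so the spread between them may be partly technical. Unstimulated cells are not analysed here, and a level does not show a response to Lipid A.

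A Rab protein cycles between a GDP-bound form and a GTP-bound form that recruits effectors such as motors and tethers to a membrane. Guanine nucleotide exchange factors (GEFs) switch it on, GTPase-activating proteins (GAPs) switch it off, and chaperones that bind the lipid on its tail return it to the cytosol. In macrophages, Rabs direct the maturation of phagosomes, the recycling of receptors and the release of secreted proteins.

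Levels are the authors' TPM, a length-normalized abundance that allows genes to be compared. A gene was called detected where its TPM was at least 1 in each library. The libraries held 14386725 to 16005795 estimated counts on annotated genes. Genes with a protein_coding transcript held 31.6%, 25.3% and 22.1% of all TPM in replicates 1, 2 and 3, and of the 39 Rab genes that were detected 33 had their highest TPM in replicate 1 and 32 their lowest in replicate 3. The same held for 75.9% and 77.1% of all detected genes with a protein_coding transcript. All 10 macrophage markers were detected, with a median TPM of 102.8, 46.0 and 42.1 in replicates 1, 2 and 3. None of 37 markers of T cells, B cells, neutrophils, erythroid cells, fibroblasts, mast cells and epithelium was detected, and 3 were in the second quantification described later. The summed TPM of a single such list was at most 1.85 in any library in the gene tables. In the second quantification the T cell marker Cd3d stood at 11.4 ± 6.96 TPM (SD, n = 3). The T cell marker Cd247 stood there at 1.63 ± 0.327 and the mast cell marker Cpa3 at 1.52 ± 0.085 (SD, n = 3).

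The upstream sequence of 4 Rab genes is shown for 3 members that were abundant and 1 without a count. Rab14 had the highest gene TPM, Rab8b the highest TPM in coding transcripts, Rab1a is the ER-to-Golgi Rab, and Rab17 had 0 counts in each library. The 4 were picked after their values were seen. Each line gives the 250 bases before the RefSeq start (GRCm38.p6), 5′ to 3′ on the gene's strand. Capitals mark the GC box GGGCGG and the CCAAT box CCAAT on either strand, so that CCGCCC and ATTGG also appear. The windows are chr2:35201121-35201370 on the minus strand for Rab14, chr9:66919706-66919955 on the minus strand for Rab8b, chr11:20201162-20201411 on the plus strand for Rab1a and chr1:90967668-90967917 on the minus strand for Rab17.
Rab14: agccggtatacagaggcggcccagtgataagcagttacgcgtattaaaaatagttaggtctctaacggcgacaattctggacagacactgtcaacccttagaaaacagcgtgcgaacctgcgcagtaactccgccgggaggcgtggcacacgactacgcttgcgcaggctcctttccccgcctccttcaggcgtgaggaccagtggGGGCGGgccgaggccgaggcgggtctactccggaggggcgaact
Rab8b: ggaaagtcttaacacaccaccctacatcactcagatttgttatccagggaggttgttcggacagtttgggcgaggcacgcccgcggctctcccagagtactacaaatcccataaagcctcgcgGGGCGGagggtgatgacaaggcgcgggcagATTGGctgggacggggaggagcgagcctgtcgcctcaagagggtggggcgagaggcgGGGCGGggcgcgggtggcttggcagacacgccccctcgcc
Rab1a: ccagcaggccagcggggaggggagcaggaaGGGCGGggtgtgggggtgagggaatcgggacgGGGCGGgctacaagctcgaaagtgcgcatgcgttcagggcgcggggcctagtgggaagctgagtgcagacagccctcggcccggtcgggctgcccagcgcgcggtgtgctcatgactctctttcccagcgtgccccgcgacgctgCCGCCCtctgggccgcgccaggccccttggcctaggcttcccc
Rab17: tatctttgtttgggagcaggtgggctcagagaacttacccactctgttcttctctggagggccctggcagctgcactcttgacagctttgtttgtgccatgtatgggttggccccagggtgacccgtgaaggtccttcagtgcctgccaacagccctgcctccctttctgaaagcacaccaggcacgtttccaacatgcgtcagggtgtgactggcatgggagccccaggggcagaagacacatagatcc

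The Rab1a window held 3 GC boxes and 23 CpG dinucleotides, and the Rab14 window 1 GC box and 23 CpG. The Rab8b window held 2 GC boxes, 1 CCAAT box and 20 CpG. The Rab17 window held 3 CpG and none of the motifs searched. Rab9b, also without a count in the gene tables, had a GC box, a CCAAT box and 17 CpG in its window of 300 bases, so Rab17 does not stand for such members. Its RefSeq start lies inside the annotated gene, 1994 bases from the start of its coding transcript. The 11160 bases between the Rab14 window and the start of that gene's most abundant coding transcript arise because this transcript starts inside the gene.

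Over windows of 300 bases (250 before to 50 after the start), 48 of the 59 Rab genes were matched by symbol. Their median GC content was 63.0%, against 57.0% over 16519 genes with a protein_coding transcript, and their median observed-to-expected CpG ratio was 0.734 against 0.601. The median number of CpG was 23.5 in the 34 matched genes that were detected and 14.0 in the 14 that were not. Over the 16519 genes it was 14.0. A GC box was found in 70.6% of the detected and 71.4% of the undetected Rab genes. Detected genes in all were not taken apart here, so whether the differences from all genes go with detection was not tested. GGGCGG on either strand occurred in 70.8% of Rab windows and 48.5% of all windows. The share with CCAAT was 47.9% against 38.6%, that with the palindrome CACGTG (E box) 10.4% against 8.05% and that with TATAAA 8.33% against 12.8%. None of these 4 motifs contains another, and a match is a match of letters, not a site.

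Of the 59 Rab genes, 39 were detected, or 66.1%, against 46.1% of the 21901 genes with a protein_coding transcript. A mean TPM of 10 or more was reached by 20 of 59, or 33.9%, against 25.6%. The median TPM over the 59 was 6.77, 4.81 and 4.42 in replicates 1, 2 and 3 (5.33 ± 1.26, SD, n = 3), and over all 21901 genes it was 0.753 ± 0.159 (SD, n = 3). On the log2(TPM + 1) scale the Rab median lay 1.84 ± 0.20 (SD, n = 3) above that of all genes, and 0.13 above with genes under a TPM of 0.1 in every library left out. Among detected genes the medians were 11.4 ± 2.04 for Rab genes and 11.7 ± 2.17 for all genes (SD, n = 3). Both shifted together between libraries. In replicates 1, 2 and 3 they were 13.44, 11.4 and 9.37 for Rab genes and 13.985, 11.45 and 9.665 for all. The Rab median was thus slightly lower in each library. In bulk RNA, fewer cells with an RNA and less of it per cell cannot be told apart.

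**Figure D1:**
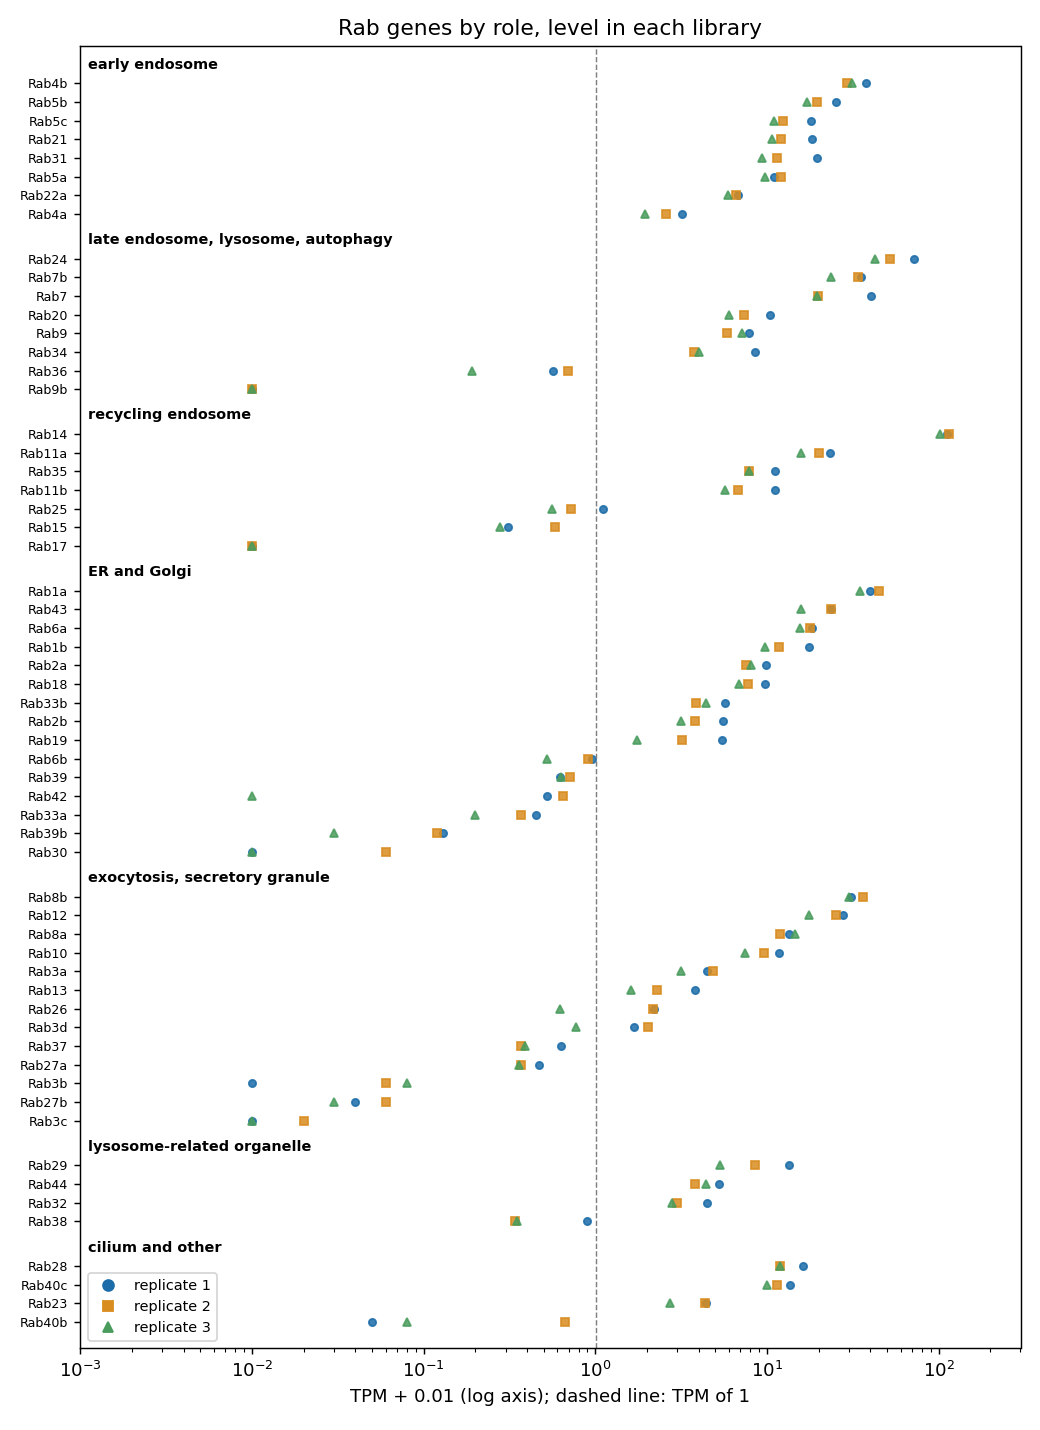
TPM plus 0.01 of each of the 59 Rab genes on a log axis, grouped by role, with a symbol for each of the 3 libraries and a dashed line at a TPM of 1. All 8 early endosome genes lie to the right of the line, Rab14 lies farthest right, and Rab17 and Rab9b lie at 0 in each library.

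Rab14 led the family and was the only member whose values all lay above those of the next gene in the order of mean TPM. Its gene, ENSMUSG00000026878.17, lies at chr2:35180205-35201120 on the minus strand (mm10). Its level was 112.34, 115.51 and 101.70 TPM in replicates 1, 2 and 3 (109.85 ± 7.23, SD, n = 3), at percentile 98.4 of genes with a protein_coding transcript. Rab14 alone held 17.0% ± 2.10 (SD, n = 3) of the summed TPM of the family, and the 6 highest members held 46.4% ± 3.20 (SD, n = 3). Of the 58 neighbouring pairs in the order, 57 had ranges that overlapped over the 3 libraries. By these ranges the order beyond Rab14 is not resolved from one gene to the next. Within libraries some steps held in all 3, such as Rab24 over Rab1a and Rab1a over Rab4b. Other steps did not, such as Rab4b over Rab8b, which held in 2.

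The early endosome Rabs, which act where internalised cargo is first sorted, were detected in full (8 of 8), 6 of them at a mean TPM of 10 or more. Rab5a, Rab5b and Rab5c drive the fusion of early endosomes. Rab5b stood at 25.20, 19.47 and 17.08 TPM in replicates 1, 2 and 3, Rab5c at 18.12, 12.43 and 11.00, and Rab5a at 10.93, 12.08 and 9.74. Rab5b was above both relatives in every library, while the ranges of Rab5a and Rab5c overlapped. In coding transcripts Rab5b stood at 9.49, 7.79 and 5.99 TPM, below Rab5c (18.11, 12.43 and 11.00) in every library, and the second quantification also placed Rab5c higher. Rab4b and Rab4a return receptors from early endosomes to the surface. Rab4b stood at 37.92, 29.19 and 31.08 TPM and Rab4a at 3.17, 2.58 and 1.95, with no overlap. In coding transcripts their ranges overlapped, at 4.96, 3.51 and 1.45 TPM for Rab4b and 2.19, 2.36 and 1.42 for Rab4a. Rab21, which binds integrins, stood at 18.27, 12.12 and 10.71 TPM. Rab31, which acts between the trans-Golgi network and endosomes, stood at 19.59, 11.41 and 9.37 TPM, and its relative Rab22a at 6.77, 6.59 and 5.94. In TPM all 3 were highest in replicate 1, but in counts scaled by library size and TMM factors Rab21 and Rab22a were lowest there.

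Of the 8 Rabs of late endosomes, lysosomes and autophagy, 6 were detected, and 3 of them were among the 7 highest members. Rab24, linked to autophagy, stood at 71.62, 52.22 and 42.57 TPM in replicates 1, 2 and 3 (55.5 ± 14.8, SD, n = 3). Its exons share 62.4% of their bases with Prelid1 on the opposite strand (11.0 ± 3.07 TPM, SD, n = 3), and with the use of strand in counting not known its value is uncertain. Rab7, the main Rab of late endosomes and lysosomes, stood at 40.31, 19.76 and 19.61 TPM. Rab7b, known in macrophages for sending TLR4 to lysosomes, is ENSMUSG00000052688.12 at chr1:131688695-131715439 on the plus strand (mm10). It stood at 35.38, 34.05 and 23.64 TPM. Rab7 was above Rab7b in replicate 1 and below it in the others.

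Rab20, known on maturing phagosomes, stood at 10.46, 7.33 and 5.97 TPM, Rab9, which works between late endosomes and the trans-Golgi network, at 7.89, 5.84 and 7.17, and Rab34, which affects lysosome position, at 8.48, 3.77 and 4.02. An RNA transcribed the other way, E230013L22Rik, covers 25.6% of the exon bases of Rab20. Rab36 stayed below a TPM of 1 at 0.56, 0.68 and 0.18. Rab9b had 0 counts in all 3 libraries, each of which allows up to 3 counts, or 0.187 to 0.209 CPM of that library. These limits cover counting error only.

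Of the 7 recycling Rabs, 4 were detected. Beside Rab14, which acts between the Golgi and endosomes, these were the Rabs of the slow and fast recycling routes. Rab11a, known for bringing TLR4 to phagosomes, stood at 23.41, 19.96 and 15.86 TPM in replicates 1, 2 and 3, Rab11b at 11.20, 6.75 and 5.69, and Rab35 at 11.08, 7.86 and 7.84. Rab11a was above Rab11b in every library, without overlap. Rab25 and Rab17, known from epithelial cells, and Rab15, known from neurons, were not detected. Rab25 stood at 1.10, 0.71 and 0.55 TPM from 5 to 8 counts, Rab15 at 0.30, 0.57 and 0.27, and Rab17 at 0.

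Of the 15 Rabs of the endoplasmic reticulum and Golgi, 9 were detected, with a median TPM of 4.16 ± 1.21 (SD, n = 3) over the 15. Rab1a, which carries vesicles from the endoplasmic reticulum to the Golgi, stood at 39.71, 44.86 and 34.66 TPM, and Rab1b at 17.47, 11.69 and 9.70. Rab2a stood at 9.91, 7.50 and 8.03 TPM and Rab2b, which serves the same compartment, at 5.51, 3.81 and 3.16. In both pairs the ranges of the a and b genes did not overlap. On the opposite strand, Gm43766 covers 59.3% of the exon bases of Rab2b, so its value is uncertain. Rab6a, the Rab of retrograde Golgi traffic, stood at 18.33, 17.77 and 15.59 TPM, and Rab6b, known from neurons, at 0.94, 0.90 and 0.51. Rab43, also of the Golgi, stood at 23.56, 23.54 and 15.72 TPM, but 75.3% of its exon bases are shared on the same strand with Gm45140 (3.39 ± 0.653 TPM, SD, n = 3). The authors' standard deviation of its count from read assignment reached 4.76% of the count, so its level is uncertain.

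Rab18, which acts at the endoplasmic reticulum and lipid droplets, stood at 9.77, 7.76 and 6.89 TPM. Rab33b, which binds the autophagy protein Atg16l1, stood at 5.67, 3.85 and 4.39 TPM and Rab33a at 0.44, 0.36 and 0.19. Rab19 stood at 5.45, 3.18 and 1.73 TPM. These detected genes were above Rab33a in every library. The members not detected beside Rab6b and Rab33a were Rab39 (0.61, 0.70 and 0.62 TPM), Rab39b (0.12, 0.11 and 0.02), Rab42 (0.51, 0.64 and 0) and Rab30 (0, 0.05 and 0), each read in the order of replicates 1, 2 and 3.

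Of the 13 Rabs of exocytosis and secretory granules, 6 were detected. Of those known from regulated granule release, the Rab3, Rab26, Rab27 and Rab37 genes, 1 of 8 (Rab3a) was detected in the gene tables and 8 of 8 in the second quantification described later. Over all genes with a protein_coding transcript these shares were 46.1% and 55.2%. This group of 8 was not planned, and the rest of the 13 (Rab8a, Rab8b, Rab10, Rab12 and Rab13) were all detected. The 8 include genes with most of their second quantification TPM outside coding transcripts, as given there. Rab8b, ENSMUSG00000036943.9 at chr9:66843664-66919687 on the minus strand (mm10), stood at 30.69, 36.06 and 30.23 TPM (32.3 ± 3.24, SD, n = 3) and Rab8a at 13.49, 11.92 and 14.49. Rab10, known for carrying TLR4 to the macrophage surface, stood at 11.71, 9.55 and 7.41 TPM. Rab12, which steers the degradation of the transferrin receptor, stood at 27.83, 25.07 and 17.46 TPM. Rab13, of junctional traffic, stood at 3.82, 2.29 and 1.60 TPM. Rab8b was above Rab8a in every library, without overlap, in the gene tables. In the second quantification their ranges overlapped and Rab8a was the higher in replicate 1. Rab8b stood there at 23.8, 31.5 and 30.6 TPM and Rab8a at 25.8, 21.4 and 23.2.

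Rab3a, the synaptic vesicle Rab, was the only Rab3 gene detected in the gene tables, at 4.49, 4.81 and 3.14 TPM in replicates 1, 2 and 3. In the second quantification Rab3b (4.08, 2.36 and 1.34 TPM), Rab3c (2.51, 4.48 and 5.09 TPM) and Rab3d (4.14, 4.69 and 2.61 TPM) passed the threshold too. In the gene tables Rab3d, of secretory granules, stood at 1.67, 2.02 and 0.76 TPM and passed 1 in 2 of the 3 libraries, as did the granule gene Rab26 at 2.19, 2.16 and 0.61. Rab26 shares 9.36% of its exon bases on the same strand with Traf7, which stood at 90.8 ± 22.9 TPM (SD, n = 3). Rab27a, the granule and exosome Rab, stood at 0.46, 0.36 and 0.35 TPM and Rab27b at 0.03, 0.05 and 0.02. Rab37 stood at 0.62, 0.36 and 0.38 TPM, Rab3b at 0, 0.05 and 0.07, and Rab3c at 0, 0.01 and 0. The last 2 genes had at most 3 counts in a library.

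Of the 4 Rabs of lysosome-related organelles, 3 were detected and none had a mean TPM of 10. Rab29, a partner of the kinase Lrrk2, stood at 13.44, 8.54 and 5.33 TPM, Rab32 at 4.45, 2.99 and 2.77, and the large Rab44 at 5.27, 3.79 and 4.42. Rab38, the melanosome relative of Rab32, stood at 0.88, 0.33 and 0.34 TPM and was below Rab32 in every library. Among the remaining 4 genes, Rab28 (16.23, 11.93 and 11.85 TPM), Rab40c (13.65, 11.40 and 10.03 TPM) and Rab23 (4.40, 4.32 and 2.73 TPM) were detected. Rab28 and Rab23 are known from cilia, and Rab40c is a substrate adaptor of a ubiquitin ligase. Rab40b stood at 0.04, 0.66 and 0.07 TPM from 1, 7 and 2 counts.

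Closely related members were compared within each library as differences in log2(TPM + 1), a scale that understates the change of low genes. Of 18 pairs, 17 had the same sign in all 3 libraries. The two-sided exact sign-flip permutation test gave p = 0.25 for these 17, which is the smallest p it can give with 3 libraries, and 0.265 after Benjamini-Hochberg adjustment over the 18 pairs. No pair could therefore reach 0.05. The widest differences were those of Rab40c over Rab40b (3.36 ± 0.46), Rab6a over Rab6b (3.36 ± 0.09) and Rab9 over Rab9b (2.99 ± 0.19), and Rab4a minus Rab4b was -3.25 ± 0.18 (SD, n = 3 for each). Rab32 minus Rab38 had the smallest spread, at 1.54 ± 0.05 (SD, n = 3). Rab38 had 12, 8 and 8 counts, and for so low a gene the added 1 narrows the spread too. Rab7 minus Rab7b was -0.28 ± 0.47 (SD, n = 3), with an exact sign-flip p of 0.5. Rab5a minus Rab5c was -0.29 ± 0.34 (SD, n = 3), so neither of these differences exceeded its spread. In the second quantification described below, Rab5c minus Rab5b turned from -0.55 to 0.78 and Rab27a minus Rab27b from 0.43 to -0.42. In coding transcripts only, 16 of the 18 pairs had 1 sign in all libraries. Rab5c minus Rab5b was then 0.75 ± 0.13, Rab4a minus Rab4b -0.45 ± 0.44 and Rab1a minus Rab1b 0.34 ± 0.39, the last with both signs (SD, n = 3 for each).

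**Figure D2:**
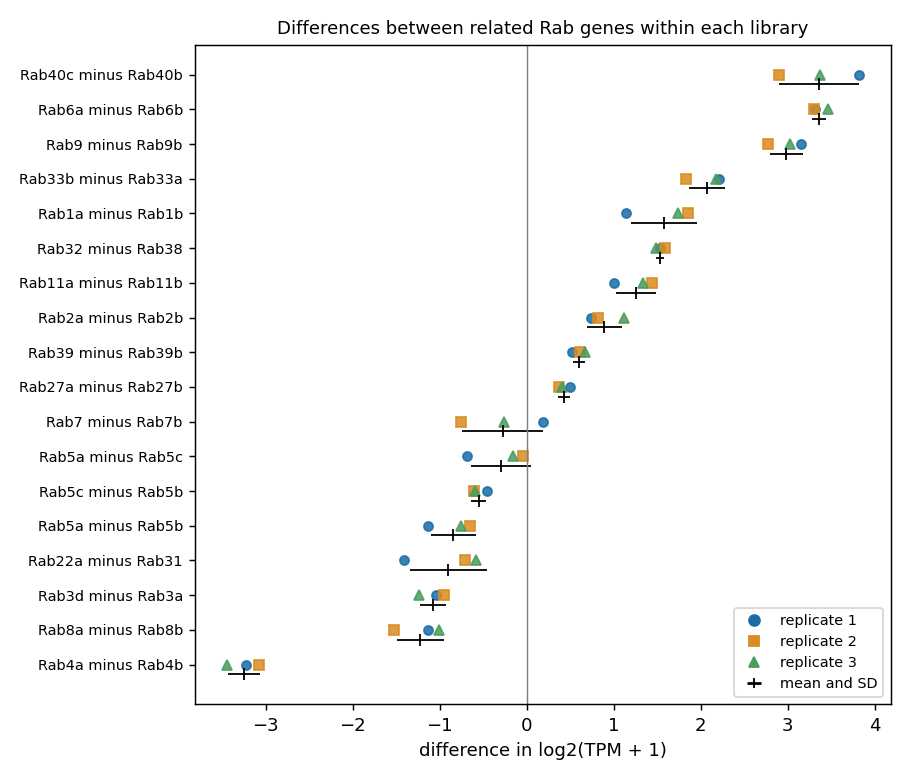
Difference in log2(TPM + 1) between related Rab genes within each of the 3 libraries, with the mean and SD drawn below the points. The points of 17 of 18 pairs lie on 1 side of 0, and those of Rab7 minus Rab7b lie on both sides.

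Gene levels in chromatin RNA can sit in transcripts that do not encode the protein, so the gene TPM was divided by annotated transcript class. Rab14 had 88.3% ± 2.08 (SD, n = 3) of its TPM in transcripts of the class retained_intron, annotated as keeping an intron that the coding transcript removes. In chromatin RNA, such transcripts and RNA not yet spliced cannot be told apart by these values. The Rab14 values were 86.2%, 90.3% and 88.5% in replicates 1, 2 and 3. In Rab23 the share was 86.8% ± 3.63, in Rab8a 67.4% ± 8.76 and in Rab4b 67.1% ± 3.46 (SD, n = 3 for each). Shares above 50% were also seen in Rab5b (62.4%), Rab6a (58.7%), Rab3a (53.1%) and Rab12 (51.0%). These 8 were of 17 detected Rab genes with such a transcript, and the same held for 44.2% of 6419 genes. The medians were 48.5% ± 2.12 for the 17 and 46.6% ± 2.33 for the 6419 (SD, n = 3), within the spread of each other.

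Such a transcript was annotated for 17 of 39 detected Rab genes and for 6419 of 10106 detected genes in all. The median share of TPM in protein_coding transcripts was 79.2% ± 2.09 over the 39 Rab genes and 55.3% ± 1.67 over the 10106 (SD, n = 3). In the second quantification these shares were closer, at 57.6% and 49.5%. The most abundant transcript was a coding one in 29 of the 39, a retained_intron one in 8 and of another class in 2. Rab7b, Rab35 and Rab13 had all their TPM in coding transcripts, though other classes are annotated for them. In the second quantification their shares were 78.0%, 61.9% and 100%. For Rab8b, Rab10, Rab2a, Rab7, Rab5c, Rab21, Rab31, Rab1b, Rab20, Rab9 and Rab19 the annotation holds coding transcripts alone, which fixes the share. These fixed shares are part of the median over the 39 Rab genes.

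**Figure D3:**
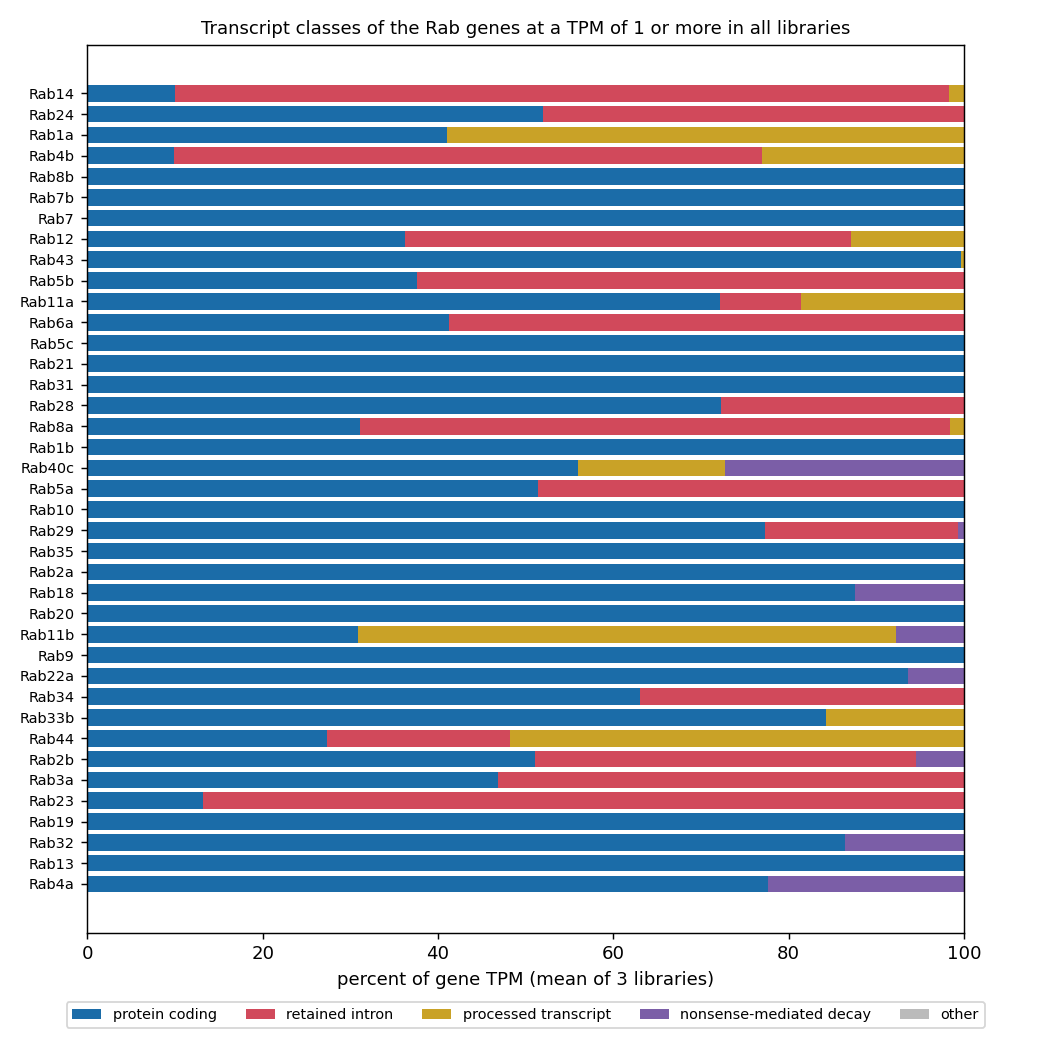
Percent of the gene TPM in each annotated transcript class, as the mean of 3 libraries, for the 39 detected Rab genes in order of mean TPM from the top. The retained intron segment fills 88.3% of the Rab14 bar, while the bars of Rab8b, Rab7b and Rab7 are filled by coding transcripts.

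Counting coding transcripts only, an order chosen after the values were seen, moved Rab14 from rank 1 to rank 12 of the 59. Its coding transcripts stood at 13.57, 9.70 and 9.57 TPM in replicates 1, 2 and 3 (10.9 ± 2.27, SD, n = 3). Rab8b then led at 32.3 ± 3.24 TPM, followed by Rab7b at 31.0 ± 6.44, Rab24 at 28.6 ± 6.08, Rab7 at 26.6 ± 11.9, Rab43 at 20.9 ± 4.45 and Rab1a at 16.2 ± 1.41 (SD, n = 3 for each). The first 4 lie within the spread of one another. The annotation bears on this order: Rab8b has 1 transcript, a coding one, and Rab14 has 13, of which 7 are of the class retained_intron. Rab4b moved from rank 4 to rank 31, at 3.31 ± 1.76 TPM (SD, n = 3), and Rab25 had 0 TPM in coding transcripts. Rab4b shares 65.0% of its exon bases on the same strand with Gm21983, which is listed at 0. Other members moved too, such as Rab8a from rank 17 to 27 and Rab5b from rank 10 to 19. The Spearman correlation was 0.93 across all 59 genes, which share libraries and are not independent replicates.

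**Figure D4:**
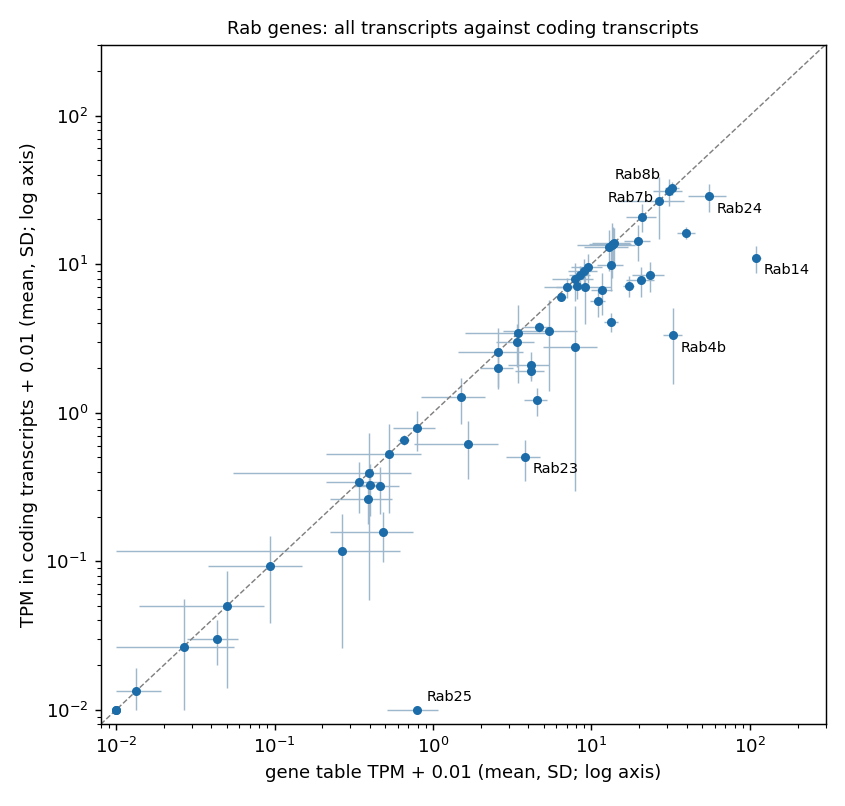
Mean TPM of each Rab gene from all its transcripts (x) against that from its coding transcripts only (y), both plus 0.01 on log axes, with bars of 1 SD over 3 libraries that stop at 0. Most genes lie on or just under the dashed line of equality, and Rab14, Rab4b, Rab23 and Rab25 lie far below it.

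The authors also deposited transcript values made directly from the reads. Summed per gene, this second quantification placed 46 of the 59 Rab genes at or above a TPM of 1 in each library, against 55.2% of the 21901 genes. Across the 59 genes the Spearman correlation of the means of both quantifications, which share the reads, was 0.917. Compared as mean TPM + 1, 11 Rab genes were at least 2-fold higher in the second quantification, against 13.8% of all genes, and 0 were at least 2-fold lower, against 0.0594%. Which of the quantifications is closer to the RNA was not tested.

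Rab7b moved to rank 1 in TPM, ahead of Rab14, but not in counts. Its second quantification TPM was 143.83, 166.39 and 111.72 in replicates 1, 2 and 3 (140.7 ± 27.5, SD, n = 3), against 31.0 ± 6.43 in the gene table. A coding transcript of 497 bases held 55.6% of that TPM and was listed at 0 in the first transcript table. A similar short coding transcript led Rab9, with 392 bases and 67.7% of the TPM, and Rab5c, with 412 bases and 33.3%. Rab9 stood at 28.9 ± 3.59 TPM and Rab5c at 36.9 ± 7.03 TPM in the second quantification (SD, n = 3). Rab34 reached 22.4 ± 2.85 TPM, 62.1% of it in a retained_intron transcript of 352 bases, and Rab18 reached 27.1 ± 3.25 TPM, 41.4% of it in a transcript of 354 bases annotated as nonsense_mediated_decay. In second quantification counts Rab7b had 2490.2, 3874.6 and 2493.2, below Rab14 at 4183.3, 6467.0 and 4990.7. In the gene tables Rab7b had 1476, 2033 and 1387 counts.

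A further 5 members had at most 5 counts in any gene table but more in the second quantification. Rab3c had 0, 2 and 0 counts in the gene tables and 278.9, 705.3 and 614.2 in the second quantification. Rab9b had 0 counts in each gene table and 66.2, 236.0 and 231.8 in the second quantification, in a coding transcript of 3980 bases. Rab30 had 0, 5 and 0 counts against 198.9, 364.0 and 287.8. Rab27b had 1, 3 and 1 counts against 166.7, 280.1 and 206.7, and Rab3b had 0, 3 and 1 against 24, 25 and 11. Rab9b and Rab30 stayed below a TPM of 1 in replicate 1 there (0.749 and 0.948), and Rab17 stood at 0 in both quantifications. The 7 members detected in the second quantification only were Rab3b, Rab3c, Rab3d, Rab26, Rab27a, Rab27b and Rab37, all from the exocytosis and granule list. There Rab3b had 97.0% of its TPM in processed_transcript ones. Rab37 had 77.3%, Rab26 63.6% and Rab27b 62.4% in retained_intron ones. Coding transcripts held 100% in Rab3c, 88.7% in Rab3d and 72.8% in Rab27a.

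**Figure D5:**
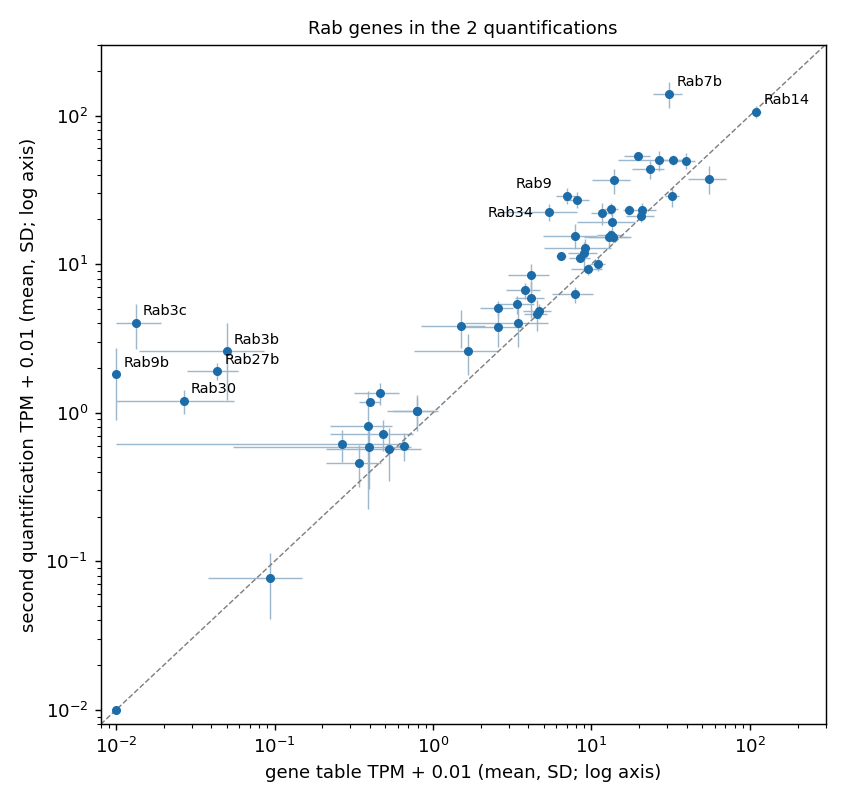
Mean TPM of each Rab gene in the gene tables (x) and in the second quantification (y), both plus 0.01 on log axes, with bars of 1 SD over 3 libraries that stop at 0 and a dashed line of equality. Rab3c, Rab9b, Rab3b, Rab27b and Rab30 lie far above the line at the left, and Rab7b lies above it at the top.

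To compare libraries, counts were scaled to CPM (counts relative to library size) with TMM factors, and each replicate was set against the mean of the others for the 47 Rab genes with a mean of 10 or more counts. The median log2 ratio was 0.11 for replicate 1, with 30 of 47 genes higher (55.0% of all genes), -0.03 for replicate 2 and -0.03 for replicate 3. Over 11738 genes it was 0.04, -0.06 and 0.00. Replicate 1 was the highest library for 21 of the 47, or 44.7%, against 41.3% of all genes, and replicate 3 the lowest for 15, or 31.9%, against 26.4%. The latter count was 28 when scaled by library size alone and 27 without replicate 2. No share of all genes is given for these settings, so neither count can be set against 26.4%. With a replicate left out fewer libraries are compared, so more genes are lowest in each that remains. Replicate 1 was the lowest for 15 (against 31.3%) and replicate 2 for 17, or 36.2%, against 42.3%. Replicate 2 was the highest for 11, or 23.4%, against 27.8%, and replicate 3 for 15, against 30.9%. The median coefficient of variation was 12.6% for these Rab genes and 13.3% for all. The Rab genes as a list therefore lay close to the background of all genes in each measure given for both.

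A few members differed more between libraries, each with 1 library at an RNA amount and so with no test. Rab19 had 6.83, 4.42 and 2.96 scaled CPM in replicates 1, 2 and 3. Its log2 ratio was 0.81 for replicate 1 and -0.83 for replicate 3. Rab29 (0.65) and Rab13 (0.54) were also highest in replicate 1, while Rab36 (-0.71) and Rab26 (-0.61) were lowest in replicate 3 on 9 and 13 counts there. Rab8b went the other way with 127.0, 168.5 and 172.8 scaled CPM, and its log2 ratio for replicate 1 was -0.42. Rab18 (-0.42) and Rab37 (-0.36) were likewise lowest in replicate 1. Rab33b (0.45), Rab18 (0.39) and Rab37 (0.29) had the highest ratios for replicate 3, where Rab37 had 13 counts.

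Genes that act on Rab proteins were mostly present. Of 128 listed genes that were measured, 111 were detected, beside 46.1% of genes with a protein_coding transcript, and 116 in the second quantification. All 8 genes of prenylation and recycling were detected. Gdi2, which extracts GDP-bound Rabs from membranes, stood at 108.42, 96.64 and 72.44 TPM in replicates 1, 2 and 3, and Rabggta, a subunit of the enzyme that adds the lipid, at 34.02, 18.12 and 14.78. Rabggta was high in replicate 1. The lowest was Rabif, at 1.91 ± 0.570 TPM (SD, n = 3).

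Of 35 GEF genes, 33 were detected. The highest were Dennd1a, an exchange factor for Rab35, at 189 ± 61.2 TPM, Gapvd1, which acts on Rab5, at 156.9 ± 21.5, and Madd, which acts on Rab3 proteins, at 96.2 ± 23.7 (SD, n = 3 for each). Dennd3 was the lowest, at 0.430 ± 0.336 TPM (SD, n = 3). Of 36 genes listed as GAPs, 33 were detected, and whether each acts as a GAP was not tested. Rab3gap2, a subunit of the Rab3 GTPase-activating complex, stood at 93.9 ± 10.3 TPM, Tbc1d13 at 77.9 ± 21.7 and Tbc1d23 at 77.0 ± 16.4 (SD, n = 3 for each). Sgsm1, the lowest, had a single count in replicate 2 and 0 in the others, and 1.96 ± 0.287 TPM (SD, n = 3) in the second quantification.

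Of 49 effector genes, 37 were detected. Myo5a, a motor recruited by granule and recycling Rabs, stood at 625.23, 552.14 and 531.29 TPM in replicates 1, 2 and 3, Appl2, a Rab5 effector, at 423.45, 342.51 and 359.38, and Ehbp1l1, which binds Rab8 proteins, at 131.72, 102.02 and 102.02. Myo5a and Appl2 were above every Rab gene in each library. Sytl5, Myrip and Rph3al, effectors of Rab27 or Rab3 proteins, had 0 counts in all 3 libraries.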

How the data were processed

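Ribosome-depleted total RNA of the chromatin fraction was measured in 3 libraries of 1 group. For each library the authors deposited a gene table with an estimated count and a TPM, and the spread of that count from read assignment as another value, per the file headers. They also deposited a transcript table made from the same transcriptome alignments to mm10 with GENCODE M21, and a second transcript table of estimated counts and TPM made directly from the reads and an index, per the deposited readme files. For both, the programs, versions and use of strand were not given in the sources used here. Entries that name no annotated gene were left out (1.16% of estimated counts in replicate 1, 0.459% in 2 and 0.351% in 3). A count of 0 allows up to 3 counts; the precision this gives covers counting error only.

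TPM was used as deposited, with a pseudocount of 1 for log2 values. Rounded estimated counts were scaled with edgeR 4.0.16 (TMM) in R 4.3.3, with a prior of 0.5 CPM for log2 ratios, and with DESeq2 1.42.0 size factors as an alternative. The scaling was tested on simulated data. Pairs were compared by an exact two-sided sign-flip permutation test with pandas 2.3.3 in Python 3.11.15. Library size alone, other pseudocounts, thresholds and count minimums, the second quantification and leaving out each replicate were tried as alternatives. Coding transcripts only, for levels and pairs, and per-gene levels in the second quantification were added after the values were seen, as were promoters with their motifs, the start chosen for each promoter, exon overlaps and leading transcripts. The group of 8 granule Rabs was also not part of the plan. For a gene with several RefSeq starts, the start nearest to that of its most abundant coding transcript was used, in place of a first rule that took the most abundant transcript of any class.

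The genes, role lists and regulator lists were chosen with earlier results of these data known. Named genes were all members by role, members of the fixed pairs, the 3 largest and 3 smallest log2 ratios of replicates 1 and 3, and in each regulator list the 3 highest genes and the lowest; 1 of these is not reported here. Of 129 listed regulators 128 were found, Zfyve20 being an older symbol of Rbsn, which was listed too. A planned description of protein sequences was not run.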

Additional observations from a re-analysis of the deposited data

How the results depend on the processing

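The count of detected Rab genes, the 17 pairs of 1 sign and the count highest in replicate 1 stayed within 1.5 times under each alternative run. The Rab median minus that of all genes, 1.84 on the log2 scale, was 2.66 with a pseudocount of 0.1, 0.13 with genes at a TPM of 0.1 or more, 1.46 in the second quantification and 0.71 with means in place of medians. The median log2 ratio of replicate 1, 0.11, was 0.068 with library size alone, 0.043 in the second quantification and 0.046 to 0.080 without replicates 3 or 2. That of replicate 3, -0.03, was -0.15 with library size alone and turned to 0.030 without replicate 1 (-0.080 without replicate 2). Rab genes lowest in replicate 3, 15 of 47, were 28 with library size alone and 20 to 27 when a replicate was left out. Fewer libraries are compared when a replicate is left out, so a higher count follows from the setting. The protein_coding share, 79.2%, was 57.6% in the second quantification (49.5% over all genes) and 87.6% from a TPM of 5. The retained_intron share, 48.5%, was 45.2% and 53.5% in these settings. Of 108 pair values under alternatives, 3 changed sign: Rab5c minus Rab5b (-0.55) in the second quantification (0.78) and in coding transcripts only (0.75), and Rab27a minus Rab27b (0.43) in the second quantification (-0.42). The cause was not tested. No paired analysis was possible because there is 1 group. A count of 0 in a gene table allows up to 3 counts, and the second quantification gave some such members more.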
